A study of Drosophila melanogaster with 18 samples.

Results

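The 8 genes of the Drosophila melanogaster circadian clock described here are per, tim, Clk, cyc, vri, Pdp1, cry and cwo. They were taken by name from a table of read counts for 17402 genes, and all 8 had a row in it. The clock is a loop of transcription and feedback. The bHLH-PAS proteins Clock (Clk) and Cycle (cyc) bind E-box sequences as a pair and activate per, tim, vri, Pdp1 and cwo. Period (per) and Timeless (tim) proteins accumulate, enter the nucleus and inhibit the Clock-Cycle pair. In a linked loop the bZIP proteins Vrille (vri) and PAR-domain protein 1 (Pdp1) act on the Clk gene, vri as a repressor and an isoform of Pdp1 as an activator. Clockwork orange (cwo), a bHLH-Orange protein, represses at E-boxes, and Cryptochrome (cry) is a blue-light receptor that marks Timeless for breakdown.

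In the adult brain the clock runs in a small set of neurons and in glia and photoreceptors, and the levels of several of its transcripts swing with the time of day. The hour of collection and the light regime are not stated in the labels, and no value below is tied to a clock phase.

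RNA was sequenced from 18 libraries in 6 groups of 3. There were 4 groups of sorted live neurons, from third-instar larvae and from pupae at stage P14, near the end of pupal life. Control animals were elav>Dcr, mCD8::GFP, and RNAi animals were elav>shep-RNAi, Dcr, mCD8::GFP, so that every neuron group carried the RNAi enhancer Dicer and a membrane GFP. The elav driver is active in neurons of every class, so each neuron library averages over clock neurons and all others, and fewer cells of a type cannot be told apart from less RNA per cell. Flies were kept on cornmeal food at 25 °C. The other 2 groups were cells of the BG3-c2 line, which comes from larval central nervous system tissue, and they received dsRNA (double-stranded RNA) matching shep or, in the control group, GFP. shep encodes an RNA-binding protein, and the design asks which neuronal transcripts depend on it.

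Total counts were 7392299 to 12910603 in the neuron libraries and 3141100 to 5081610 in the BG3 libraries. Levels are given as CPM, counts scaled to the size of the library, with TMM factors over all 18 libraries. These factors were 1.09 to 1.22 in larval neurons, 0.66 to 0.75 in pupal neurons and 1.195 to 1.304 in BG3 cells. A gene was called at an adjusted p under 0.05 in the quasi-likelihood test of edgeR over all genes tested in that comparison. shep itself was lower in every knockdown library than in every matching control, with log2 fold changes of -0.92 in pupal neurons (SE 0.10, adjusted p = 3.70e-06 by edgeR), -1.44 in larval neurons (SE 0.11, adjusted p = 4.93e-09 by edgeR) and -1.08 in BG3 cells (SE 0.09, adjusted p = 1.26e-06 by edgeR). Some replicates differed more than others. The counts of pupal control replicate 1 differed from the other pupal controls by a chi-square per degree of freedom of 14.0 and 22.9. The value between those 2 was 6.58. Pupal RNAi replicates 1 and 3 (17.45) and BG3 shep dsRNA replicates 2 and 3 (22.2) also differed widely. Larval control replicate 1 differed from the other larval controls by 20.7 and 19.3, against 4.98 between those 2. It held the lowest CPM of 6 of the 7 clock genes other than cry. Without it, the log2 fold changes between pupal and larval controls were 1.07 for per, -0.30 for tim, -0.998 for Clk, -0.95 for cyc, -3.76 for vri, 4.58 for Pdp1 and 0.76 for cwo, and the calls of tim and Clk changed. Nothing in the labels says that replicates came from different animals or cultures, so the spread behind each p-value may be technical.

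The 8 genes lie apart in the genome except for a pair on arm 3L. Coordinates are those of dm6. Clk (FBgn0023076, 3L:7763233-7775603, minus strand) and Pdp1 (FBgn0016694, 3L:7811458-7867369, minus strand) are 35.9 kb apart with 1 gene of the table between them. cyc (FBgn0023094, 3L:19813770-19815938, minus strand) lies farther along that arm. tim (FBgn0014396, 2L:3493986-3508119, minus strand) and vri (FBgn0016076, 2L:5288944-5311223, plus strand) are on arm 2L, and per (FBgn0003068, X:2685580-2692780, plus strand) is on X. cry (FBgn0025680, 3R:19212154-19215442, plus strand) and cwo (FBgn0259938, 3R:10388258-10400752, plus strand) are on arm 3R. Whether the counting used strand is not given in the sources used here, which leaves reads from overlapping genes uncertain. Overlaps on the opposite strand are 49 exonic bases of per with dyw, 9 of cry with vib and 545 of tim with lncRNA:CR46495. On the same strand, where strand would not separate the reads, tim shares 151 exonic bases with snoRNA:Or-CD16 and cry 329 with lncRNA:CR46393. These 3 noncoding RNAs have no row in the table. Counts are per gene and do not separate isoforms, of which Pdp1 has the most annotated, with 13 transcripts, against 2 for per and 1 each for cyc and cry.

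All 8 genes had reads in neurons, but at very different levels. vri was above Pdp1 in larval control neurons and far below it in pupal ones. Compared per length (CPM per kb of exonic length), cyc was the most abundant in larval control neurons at 17.99 ± 1.30 (SD, n = 3), followed by vri at 7.89 ± 1.02. cwo (5.22 ± 0.82), Pdp1 (4.25 ± 0.85) and per (3.80 ± 0.83) came next, with ranges that overlapped from each to the next. tim was at 1.85 ± 0.17, and the lowest were Clk at 0.42 ± 0.23 and cry at 0.20 ± 0.12, which overlapped. In pupal control neurons Pdp1 led at 112 ± 19.3 CPM per kb, well above cyc (9.56 ± 0.71), cwo (9.43 ± 0.36) and per (8.82 ± 0.84), whose ranges overlapped. tim stayed in the middle at 1.48 ± 0.25, while cry (0.74 ± 0.36), vri (0.61 ± 0.07) and Clk (0.26 ± 0.06) were lowest. Among all 15123 genes of the table ranked in this way, 63.2% were lower than Pdp1 in larval control neurons and 95.8% in pupal control neurons. For vri the share went from 71.4% to 48.0%. The ratio of Pdp1 to vri per length was 0.54 ± 0.05 in larval control and 0.73 ± 0.13 in larval RNAi neurons, but 184 ± 16.5 in pupal control and 181 ± 52.4 in pupal RNAi neurons (SD, n = 3 each). The per to tim ratio was 2.07 ± 0.53 in larval control and 6.13 ± 1.45 in pupal control neurons, with no overlap (ranges 1.52 to 2.56 and 4.49 to 7.25).

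**Figure D1:**
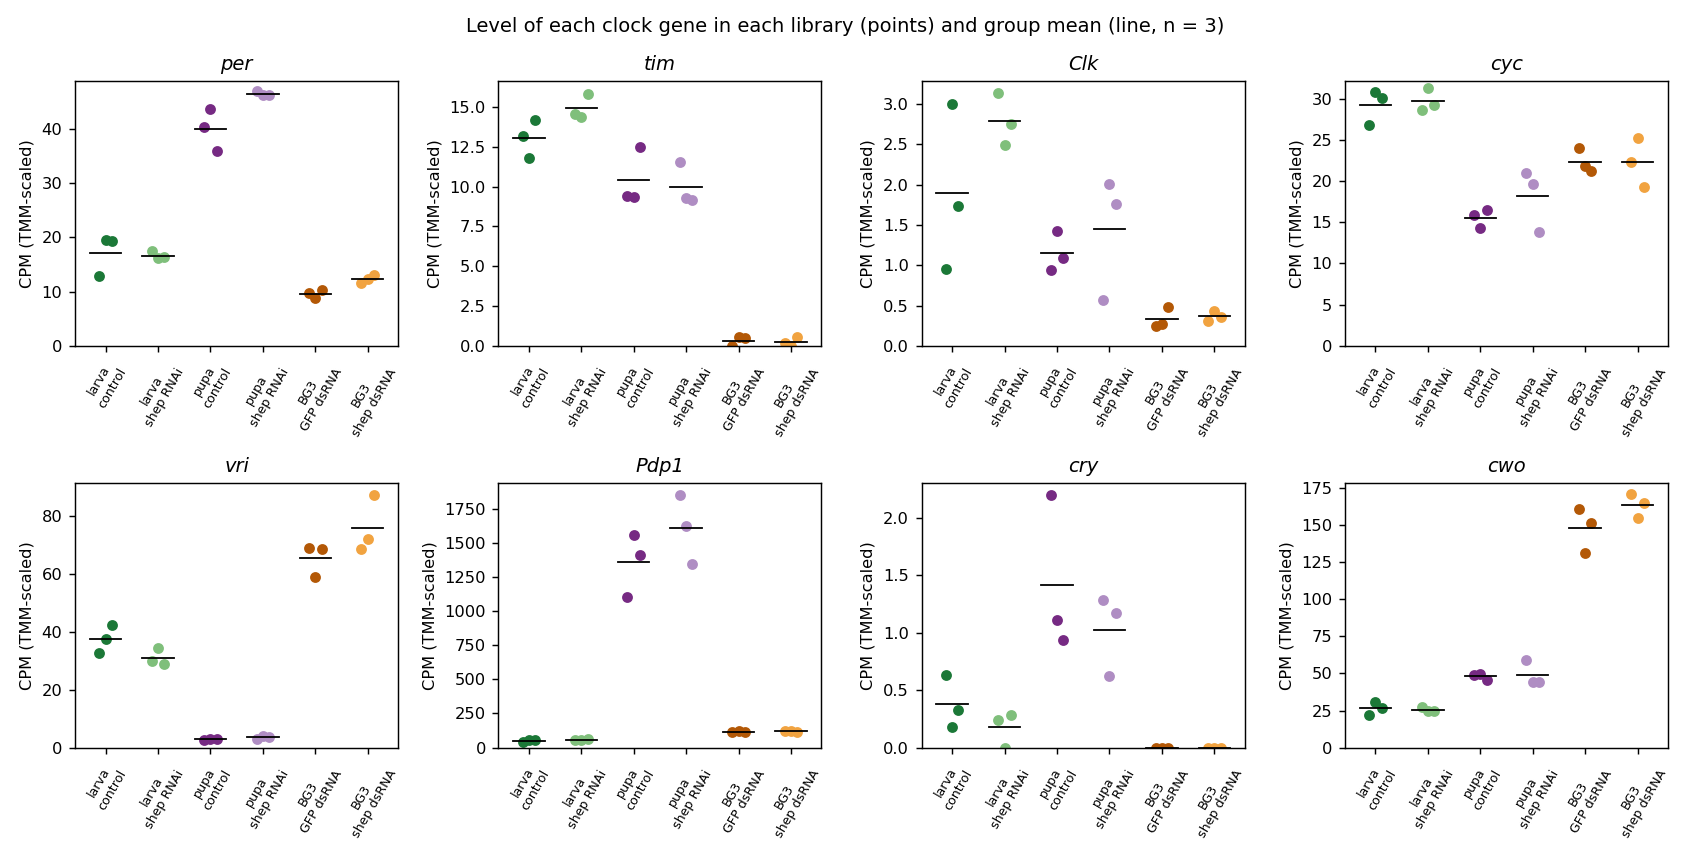
Level of each clock gene (CPM, TMM-scaled, linear axis from 0) in each of the 18 libraries, drawn as points by group, with the group mean as a line (n = 3). Pdp1 is at 1101 to 1560 CPM in pupal control neurons against 40.0 to 59.4 in larval controls, vri is at 2.51 to 3.11 against 32.5 to 42.2, and cwo is highest in BG3 cells at 131 to 171 CPM.

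**Figure D2:**
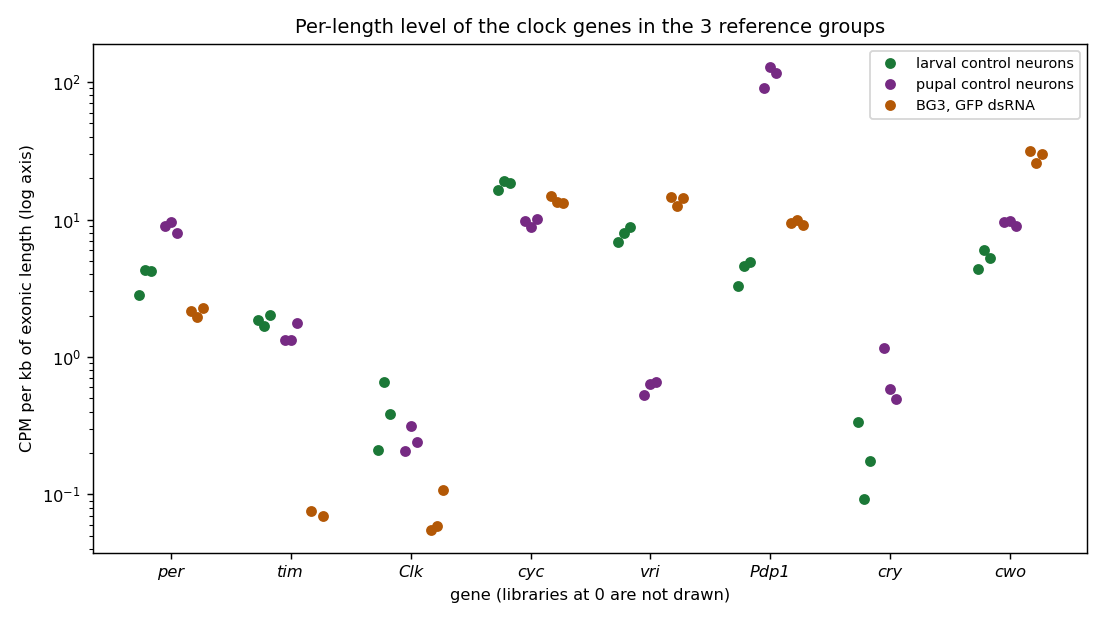
Per-length level (CPM per kb of exonic length, log axis) of the 8 genes in larval control neurons, pupal control neurons and GFP dsRNA BG3 cells, each point a library, with libraries at 0 not drawn. cyc leads in larval neurons (mean 17.99), Pdp1 in pupal neurons (mean 112) and cwo in BG3 cells (mean 29.0).

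To describe the clock genes across development, pupal and larval control neurons were compared, and the RNAi neurons of both stages were compared in the same way as a set of libraries that shares none with the first. Pdp1, per and cwo were higher in pupal neurons, and vri, cyc and tim were lower. The same directions held in the RNAi libraries, where Clk was also lower. The sizes of these differences depend on the TMM factors, which were lower in every pupal than in every larval library. No alternative scaled the libraries by their totals alone. The stages differed widely across the transcriptome. Of 8784 genes tested 83.3% were called in the control comparison (39.0% higher and 44.3% lower in pupae) and 82.4% in the RNAi comparison (38.7% and 43.7%), so the counts of 3 higher and 3 lower among the 7 clock genes tested (cry did not pass the filter on low counts), and of 3 higher and 4 lower in the RNAi libraries, were close to the background. The median log2 fold change was -0.32 over these 7 genes and -0.17 over all genes tested in the control comparison. Groups did not overlap for 5 of the 7 genes in the control comparison, against 84.0% of all genes, and for all 7 in the RNAi comparison, against 83.4%. An exact 2-sided permutation test of 3 against 3 libraries cannot go below p = 0.1, which every gene without overlap reached.

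In the activating arm, cyc was lower in pupal neurons and Clk was too scarce to place firmly. cyc had 26.8, 30.8 and 30.1 CPM in the larval control libraries and 15.8, 14.3 and 16.5 in the pupal ones. All 3 pupal values lay below all larval ones, a log2 fold change of -0.90 (SE 0.13, adjusted p = 4.81e-07 by edgeR). In the RNAi libraries it went from 28.6, 31.3 and 29.2 to 20.9, 19.7 and 13.9 CPM (log2 fold change -0.68 ± 0.12 SE, adjusted p = 2.20e-05 by edgeR). With the trend of counts with gene length removed, these differences of cyc were smaller, at -0.53 (adjusted p = 0.000522 by edgeR) in control and -0.31 (adjusted p = 0.0268 by edgeR) in RNAi libraries. Clk had only 15, 34 and 21 reads in the larval controls and 6, 9 and 7 in the pupal controls, or 0.95, 2.99 and 1.73 against 0.94, 1.43 and 1.09 CPM. The lowest larval library lay among the pupal ones, and the log2 fold change of -0.65 did not pass (95% interval -1.58 to 0.28, adjusted p = 0.181 by edgeR), although without larval control replicate 1 it was -0.998 and passed (adjusted p = 0.0341 by edgeR). Without larval control replicate 2 it was -0.18 (adjusted p = 0.729 by edgeR), so that the value rests on which larval controls are used. In the RNAi libraries Clk was at 3.14, 2.49 and 2.75 CPM in larvae and 0.57, 2.01 and 1.76 in pupae, with no overlap and a log2 fold change of -0.98 (SE 0.42, adjusted p = 0.0337 by edgeR). That call was lost without pupal RNAi replicate 1 (-0.53, adjusted p = 0.243 by edgeR), larval RNAi replicate 1 (-0.89, adjusted p = 0.0851 by edgeR) or larval RNAi replicate 3 (-0.98, adjusted p = 0.0537 by edgeR), and with DESeq2 (adjusted p = 0.0748).

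In the inhibiting arm the partners per and tim went opposite ways. per had 12.8, 19.5 and 19.3 CPM in larval controls and 40.3, 43.6 and 36.0 in pupal controls. Every pupal library was well above every larval one, a log2 fold change of 1.24 (SE 0.13, adjusted p = 2.43e-09 by edgeR), or 1.07 without larval control replicate 1. In the RNAi libraries per rose from 17.5, 16.1 and 16.3 to 46.9, 46.3 and 46.1 CPM (log2 fold change 1.49 ± 0.13 SE, adjusted p = 9.30e-11 by edgeR). tim, whose protein needs Period to enter the nucleus, was at 13.2, 11.8 and 14.2 CPM in larval controls and 9.41, 9.35 and 12.5 in pupal controls. The groups overlapped in 1 pupal library, and the log2 fold change of -0.32 (SE 0.14) passed barely (adjusted p = 0.0446 by edgeR). It did not pass when any 1 of 9 libraries was left out (larval control replicates 1 and 3, pupal control replicates 1 and 2, all larval RNAi replicates, and pupal RNAi replicates 2 and 3, with adjusted p = 0.0506 to 0.196), nor with DESeq2 (adjusted p = 0.0952) or with other size factors (adjusted p = 0.0591). In the RNAi libraries, where tim was at 14.6, 14.4 and 15.8 CPM in larvae and 11.5, 9.28 and 9.18 in pupae, the groups did not overlap and the log2 fold change was -0.56 (SE 0.15, adjusted p = 0.00125 by edgeR). With the trend of counts with gene length removed, the log2 fold change of tim was -0.89 in control (adjusted p = 3.34e-06 by edgeR) and -1.18 in RNAi libraries (adjusted p = 5.43e-08 by edgeR).

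The genes of the linked loop, vri and Pdp1, had the largest stage differences of the 8 and in opposite directions. vri had 32.5, 37.5 and 42.2 CPM in larval controls but 2.51, 3.01 and 3.11 in pupal controls, from 16, 19 and 20 reads. Its pupal mean was 0.0770 of the larval mean, a log2 fold change of -3.68 (SE 0.17, adjusted p = 2.78e-16 by edgeR). In the RNAi libraries vri went from 29.8, 34.4 and 29.0 to 2.99, 4.18 and 3.52 CPM (log2 fold change -3.12 ± 0.17 SE, adjusted p = 7.20e-15 by edgeR). Pdp1 was at 40.0, 55.5 and 59.4 CPM in larval controls and at 1101, 1560 and 1411 in pupal controls. The pupal mean was 26.3 times the larval one. The fitted log2 fold change was 4.73 (SE 0.16, adjusted p = 1.12e-15 by edgeR), with a 95% interval of 21.0 to 33.6 for the fold. The RNAi libraries gave 56.7, 52.7 and 63.9 CPM in larvae and 1849, 1624 and 1344 in pupae, a log2 fold change of 4.81 (SE 0.16, adjusted p = 9.63e-16 by edgeR). Only 6.53% of the genes tested had a larger absolute stage difference than Pdp1 in the control comparison, and 13.1% a larger one than vri. Pdp1 has the longest exonic sequence of the 8 genes (12138 bases), and with the trend of counts with gene length removed in each library its log2 fold change was 3.92 in control and 3.93 in RNAi libraries. The isoforms of Pdp1 outside the clock, which have roles in growth and muscle, are counted in the same row.

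On the TMM scale the E-box repressor gene cwo was higher in pupal neurons by less than a doubling. It had 22.3, 30.6 and 26.8 CPM in larval controls and 48.8, 49.4 and 45.9 in pupal controls, with no overlap (log2 fold change 0.87 ± 0.12 SE, adjusted p = 2.94e-07 by edgeR). Its reads were 351, 348 and 326 in larval controls and 311, 312 and 295 in pupal controls, so this difference rests on the scaling of the libraries. In RNAi libraries it went from 27.5, 24.9 and 24.6 to 59.0, 44.3 and 44.0 CPM (log2 fold change 0.95 ± 0.12 SE, adjusted p = 9.11e-08 by edgeR). The light receptor gene cry had 10, 2 and 4 reads in the larval controls and 14, 7 and 6 in the pupal controls, too few to pass the filter on low counts. In CPM these were 0.64, 0.18 and 0.33 against 2.19, 1.11 and 0.93, so that the pupal libraries were all above the larval ones, with a ratio of means of 3.71. With no filter on low counts cry was called higher in pupae (log2 fold change 1.78, adjusted p = 0.003 by edgeR), and with DESeq2 likewise (1.85, adjusted p = 0.0118). The RNAi libraries had 3, 0 and 3 reads in larvae and 9, 4 and 6 in pupae.

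**Figure D3:**
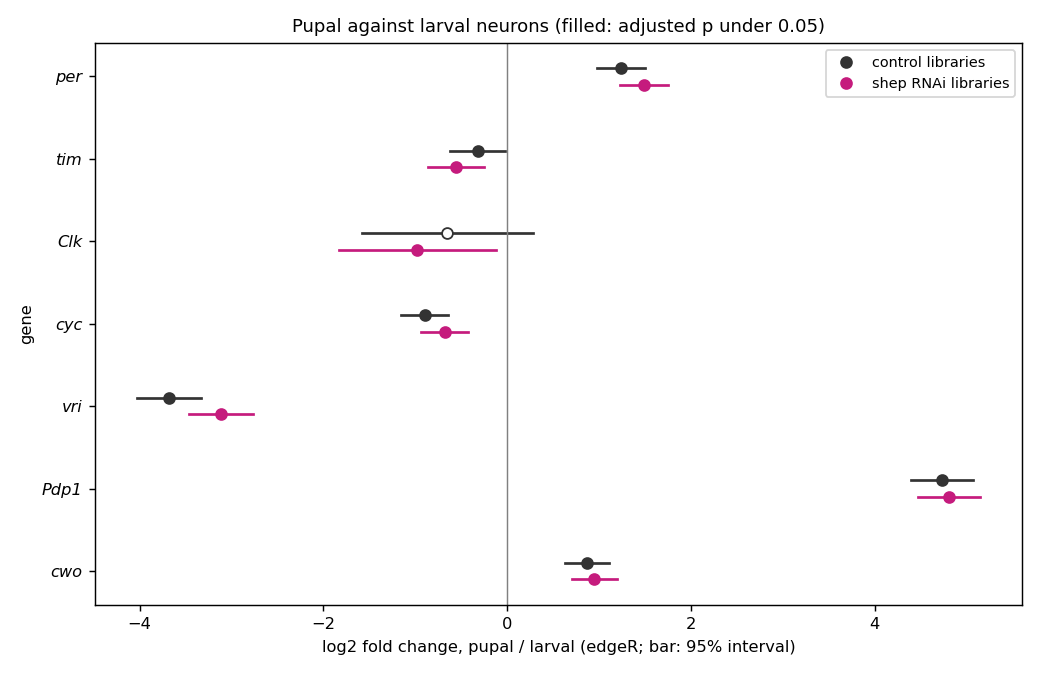
Log2 fold change of the 7 tested clock genes between pupal and larval neurons (edgeR, bars 95% intervals), for control and for shep RNAi libraries, which share no library. Filled points passed an adjusted p of 0.05, and Clk in control libraries (-0.65) did not. Pdp1 is at 4.73 and 4.81 and vri at -3.68 and -3.12.

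Markers of other cell types also moved with stage, and their part in the clock gene values was not tested. The 10 neuronal markers summed to 7369 to 8698 CPM in larval controls and 35567 to 40302 in pupal controls. The 8 neuroblast markers summed to 23960 to 35750 CPM in larval and 4200 to 5724 in pupal controls, of which most was pros, a gene that young neurons also express. The defining neuroblast genes ase (110 and 0.729 CPM) and dpn (31.3 and 0.209 CPM) were near 0 in pupae. The 10 glial markers summed to 188 to 235 CPM in larval and 947 to 1063 in pupal controls, almost all of it Eaat1 in pupae, while repo, the defining glial gene, was at 9.39 and 1.05 CPM. The 14 photoreceptor markers summed to 187 to 199 and 1627 to 1766 CPM, nearly all norpA, with ninaE at 0 in the pupal controls and Rh6 at 0 in every library. The 8 muscle markers, of a tissue in which Pdp1 is also expressed, summed to 72.4 to 80.6 and 521 to 579 CPM, nearly all of it Mef2 in pupae (35.1 and 532 CPM), a gene that some neurons also express. Of the 6 muscle markers tested Mef2 was the 1 higher and 4 were lower, with Mhc at 2.92 and 0.157 CPM. The 8 hemocyte markers summed to 42.0 to 50.8 and 316 to 357 CPM, mostly Pxn, with Hml under 1 CPM in both groups. Fat body markers were at 4.58 to 5.68 and 6.69 to 9.41 CPM in sum.

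The rest of the clock pathway, 83 further genes of the table in 7 lists, also differed between the stages. Of 74 tested in the control comparison, 47 were higher and 21 lower in pupal neurons, with a median log2 fold change of 0.85. These were 91.9%, beside 83.3% of all genes (39.0% higher and 44.3% lower). In the RNAi libraries 48 were higher and 22 lower (94.6%, beside 82.4% of all genes). Genes for the excitability of clock neurons and for sleep were higher for 12 of 13 and lower for none. They were led by the NALCN channel partners unc80 (7.46) and unc79 (7.10) and the calcium-activated potassium channel gene slo (6.72). Their median log2 fold change was 3.80. The 10 neuronal markers moved alike, with 8 higher, 2 lower and a median of 3.20. Of 13 genes for clock neuron peptides and their receptors 11 were higher and 2 lower. The higher ones included sNPF (log2 fold change 7.21) and Pdfr (6.66), the receptor gene of the clock neuropeptide PDF. Pdf itself, a marker of the clock's ventral lateral neurons, had 1 to 3 reads in every larval library and 0 in every pupal one. Of 7 light input genes 5 were higher and 1 lower, among them the histamine receptor gene ort (9.23), the phospholipase gene norpA (3.30) and the opsin gene Rh7 (3.21).

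Regulators of clock proteins were split by stage, as were all genes (39.0% higher and 44.3% lower), and with 6 to 11 tested genes a list none of the counts that follow is read as particular to its list. Of 11 kinase and phosphatase genes 5 were higher and 4 lower, with sgg (2.35), which encodes the GSK3 kinase that acts on Timeless, and Pka-C1 (1.91) higher, and tws (-0.97), a PP2A regulatory subunit gene, lower. In protein turnover 6 of 8 were higher and 1 lower, with the F-box gene jet (1.75), needed for the breakdown of Timeless by light, and Cul1 (0.76) higher and the COP9 signalosome gene CSN5 (-3.66) lower. Translation and chromatin cofactors were mostly lower, 6 of 9 with 2 higher, including HDAC1 (-3.95), the chromatin remodeller brm (-2.72) and lark (-1.61). In the bHLH-PAS family, to which Clk and cyc belong, 4 of 7 were higher and 3 lower. The juvenile hormone receptor gene Met (1.44) and its partner tai (1.16) were higher and the midline gene sim (-1.50) lower. Among the relatives of the other clock genes 4 of 6 were lower and 2 higher, including the bHLH-Orange genes dpn (-7.14) and Hey (-4.97) and timeout (-3.83), a relative of tim.

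BG3 cells held some clock genes and nearly lacked others. Compared with larval control neurons, the stage from which the line comes, GFP dsRNA BG3 cells had more cwo, Pdp1 and vri and less tim, Clk, per and cyc, and no read of cry. All 7 genes tested were called, 3 higher and 4 lower, where 82.5% of 9439 genes were called (37.0% higher and 45.4% lower). The groups were without overlap for all 7, and likewise for 83.9% of all genes. The median log2 fold change was -0.38 over these genes and -0.23 over all tested. The cell line and the neurons also differed in source, depth and treatment, which cannot be told apart in this comparison. The 10 neuronal markers summed to only 98.6 to 105 CPM in these cells, of which elav made up 82.9, and the 8 hemocyte markers summed to 2489 to 2744 CPM, led by Ppn at 979. Of the 6 hemocyte markers tested 5 were higher and 1 lower than in larval control neurons, while He was at 0 and NimC1 at 0.081 CPM. Glial markers summed to 475 to 520 CPM and muscle markers to 466 to 485 CPM, each with 3 markers higher and 3 lower. The part of these markers in the clock gene values was not tested.

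The negative regulators split most widely in BG3 cells. tim had 0, 2 and 2 reads with GFP dsRNA and 1, 0 and 3 with shep dsRNA. Against larval control neurons its log2 fold change was -5.21 (SE 0.38, adjusted p = 1.19e-14 by edgeR). per was still present at 9.76, 8.77 and 10.3 CPM, below all 3 larval controls, with a log2 fold change of -0.82 (SE 0.17, adjusted p = 3.19e-05 by edgeR), which was -0.14 and not called once the trend with gene length was removed (adjusted p = 0.446 by edgeR). cwo, by contrast, was at 161, 131 and 151 CPM, all above every neuron library, with a log2 fold change of 2.48 (SE 0.11, adjusted p = 6.86e-21 by edgeR), or 3.25 with the length trend removed. At 29.0 ± 2.996 CPM per kb (SD, n = 3) it was the most abundant of the 8 genes there, and 90.0% of the table's genes were lower. The ratio of cwo to per per length was 13.7 ± 0.84 in these cells and 1.39 ± 0.15 in larval control neurons.

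The activating arm in BG3 cells consisted of cyc without more than traces of Clk. Clk had 1, 1 and 2 reads with GFP dsRNA and 2 in each shep dsRNA library, a log2 fold change of -2.38 against larval control neurons (SE 0.66, adjusted p = 0.00133 by edgeR). With only the compared groups fitted, 6 clock genes were called and Clk was not among them. cyc was at 24.0, 21.8 and 21.3 CPM, just under the larval controls (-0.38, SE 0.13, adjusted p = 0.00712 by edgeR). Of the linked loop, vri was at 68.8, 59.0 and 68.4 CPM and Pdp1 at 111 to 120 CPM, both above every larval control library. Their log2 fold changes were 0.81 (SE 0.11, adjusted p = 3.97e-08 by edgeR) and 1.16 (SE 0.14, adjusted p = 5.05e-08 by edgeR), and 1.53 and 2.49 with the length trend removed. cry had no read in any of the 6 BG3 libraries, which for counting error allows up to 0.253 CPM over the 3 GFP dsRNA libraries and 0.180 CPM over the 3 shep dsRNA libraries (3 reads over a group). It had 16 reads over the larval controls, or 0.38 ± 0.23 CPM, and was not tested in this comparison, while DESeq2 (adjusted p = 0.0430) and edgeR with no filter (adjusted p = 0.0175) called it lower in BG3 cells.

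Of the 83 other pathway genes 75 were tested in this comparison, with 9 higher and 60 lower in BG3 cells (92.0%, beside 82.5% of all genes, 37.0% higher and 45.4% lower). All 10 neuronal markers were lower too, with a median log2 fold change of -9.27. Excitability and sleep genes were lower for 12 of 13 and higher for 1 (median -6.69). Peptide and receptor genes were lower for 10 of 13 and higher for 2 (median -4.63). The higher pathway genes included hry (8.35), which encodes a bHLH repressor related to cwo, the peptide gene ITP (4.98), the AP-1 gene kay (3.08) and wake (0.56). Genes for the sodium leak channel na (-8.28) and its partner Mid1 (-9.83) were lower, as were the kinase gene nmo (-3.50), sim (-2.71) and tgo (-1.10), a bHLH-PAS partner gene. na and Mid1 were at only 0.41 and 0.17 CPM in these BG3 cells, so the sizes of their changes are uncertain. All 7 tested bHLH-PAS genes beside Clk and cyc were lower, as were all 7 light input genes tested, where 45.4% of all genes were.

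To ask whether the clock genes depend on shep, knockdown and control libraries were compared in each of the 3 settings. None of the clock genes was called in pupal neurons (0 of 7, beside 7.65% of 8784 genes, 3.48% higher and 4.17% lower), in larval neurons (0 of 7, beside 0.364%, 0.171% higher and 0.194% lower) or in BG3 cells (0 of 5, beside 5.41% of 6816 genes, 3.35% higher and 2.07% lower). DESeq2 and limma-voom likewise called none. The pupal minus larval difference in the response was called for none of the 7 genes (beside 0.364%, 0.102% higher and 0.262% lower). With no adjustment, p was under 0.05 by edgeR for 0, 1, 0 and 0 clock genes in the pupal, larval, BG3 and difference tests, beside 1966, 763, 1298 and 917 of all genes. These tests do not show that the genes were unaffected, and the intervals below give the changes that the data leave possible. The larval control libraries serve in the larval knockdown, the stage and the BG3 against neuron comparisons.

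In pupal neurons the groups were separated for per alone. It was at 36.0 to 43.6 CPM in controls and at 46.1 to 46.9 in RNAi libraries, while 24.1% of all genes had no overlap. The ratio of means was 1.16, and the fold fitted by edgeR had a 95% interval of 0.97 to 1.37 (adjusted p = 0.348 by edgeR). Pdp1 was at 1101, 1560 and 1411 CPM in control and 1849, 1624 and 1344 in RNAi libraries, an overlapping spread with an interval of 0.96 to 1.43. The log2 fold change of Pdp1 was 0.23, or 0.085 without pupal control replicate 1. The intervals were 0.76 to 1.21 for tim, 0.96 to 1.43 for cyc, 0.84 to 1.77 for vri and 0.86 to 1.20 for cwo, and for the scarce Clk 0.57 to 2.57. The median log2 fold change was 0.23 over the 7 genes and 0.01 over all genes tested. RNAi replicate 1 held the highest CPM for 5 of the 7 genes and RNAi replicate 3 the lowest for 5. The neuroblast marker sum was 6846 to 8343 CPM in RNAi libraries against 4200 to 5724 in controls, with pros the gene called. The glial sum was lower (707 to 940 against 947 to 1063 CPM), as was the hemocyte sum (269 to 287 against 316 to 357 CPM), with no marker of either called. Of the muscle markers sls was called higher, and of the 10 neuronal markers Rbp9 was called higher and Snap25 and VAChT lower. The part of these markers in the clock gene values was not tested.

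In larval neurons vri came closest to a call. It had 29.8, 34.4 and 29.0 CPM in RNAi libraries and 32.5, 37.5 and 42.2 in controls, which overlapped in 1 RNAi library. The log2 fold change was -0.28 (95% interval -0.50 to -0.05) with an unadjusted edgeR p of 0.0174 and an adjusted p of 0.417. tim was the only gene without overlap, at 14.4 to 15.8 CPM against 11.8 to 14.2 in controls (15.8% of all genes had none), with an interval for the fold of 0.94 to 1.36 (adjusted p = 0.766 by edgeR). Intervals were 0.80 to 1.17 for per, 0.86 to 1.18 for cyc, 0.90 to 1.38 for Pdp1, 0.81 to 1.14 for cwo and 0.93 to 2.47 for Clk, all for the fold. vri also had the pupal minus larval difference with the lowest p, a log2 value of 0.57 (SE 0.28, adjusted p = 0.488 by edgeR). cry had 3, 0 and 3 reads in larval RNAi and 9, 4 and 6 in pupal RNAi libraries and was not tested.

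In BG3 cells per was the only clock gene without overlap, at 11.6, 12.4 and 13.1 CPM with shep dsRNA against 9.76, 8.77 and 10.3 with GFP dsRNA (23.6% of all genes had none). Its log2 fold change was 0.35 (SE 0.18, adjusted p = 0.284 by edgeR), a fold between 0.99 and 1.64. vri was at 68.4, 72.1 and 87.1 CPM against 68.8, 59.0 and 68.4, a log2 fold change of 0.20 (SE 0.10, adjusted p = 0.273 by edgeR). Intervals for the fold were 0.81 to 1.19 for cyc, 0.93 to 1.15 for Pdp1 and 0.98 to 1.23 for cwo. tim, Clk and cry had too few reads to be tested.

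**Figure D4:**
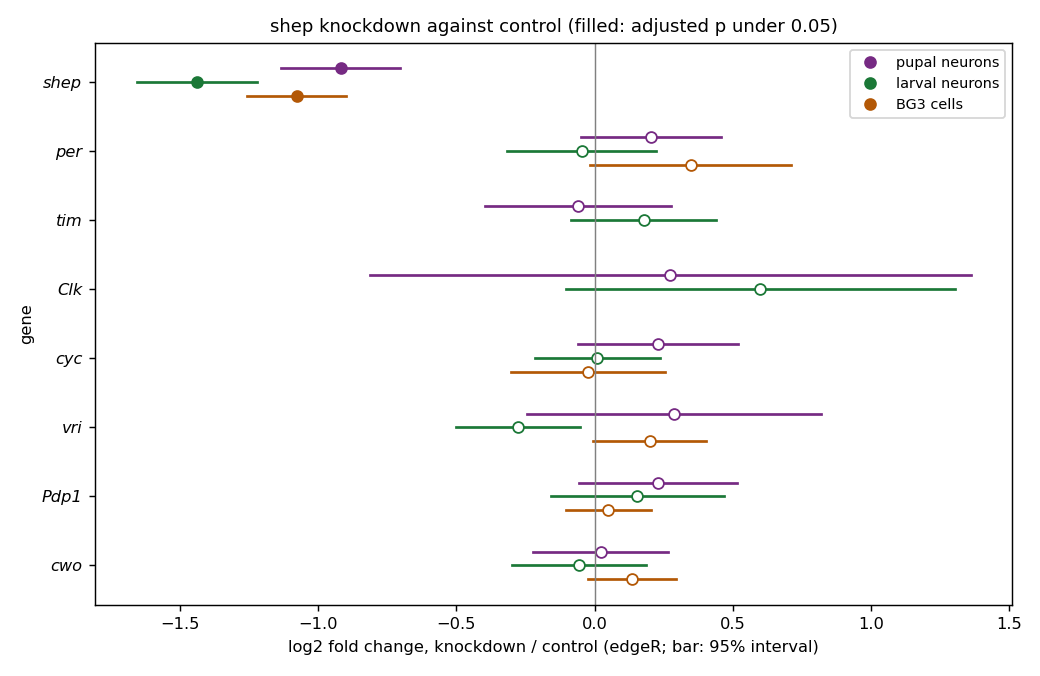
Log2 fold change of shep and the tested clock genes on shep knockdown in pupal neurons, larval neurons and BG3 cells (edgeR, bars 95% intervals, filled where adjusted p was under 0.05). shep is called in all 3 settings (-0.92, -1.44 and -1.08), and no clock gene is called.

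A few other pathway genes did pass on knockdown. In pupal neurons 4 of 74 rose and 2 fell (8.11%, beside 7.65% of all genes). brm (0.46), NPFR (0.43), the bHLH-PAS gene gce (0.37) and tws (0.29) rose. The diuretic hormone genes Dh44 (-0.72), from 31.2 to 19.4 CPM, and Dh31 (-0.67), from 82.6 to 52.6 CPM, fell, and both are peptides of clock output neurons. In larval neurons edgeR called 0 of the 74 (beside 0.364% of all genes). Before adjustment 4 were at a p under 0.05, beside 763 of 8784 genes. For the difference between the stages it called 0 (beside 0.364%), with 7 such genes before adjustment, beside 917 of 8784. The counts before adjustment were 24 of 74 in pupal neurons (beside 1966 of 8784 genes) and 20 of 44 in BG3 cells (beside 1298 of 6816). In BG3 cells 8 of 44 rose and none fell (18.2%, beside 3.35% of all genes that rose). They were the kinase genes nmo (0.59), CkIIbeta (0.46) and CkIalpha (0.30), the PP2A subunit gene wdb (0.22), Atx2 (0.41), which acts in the translation of per, ITP (0.35), hry (0.27) and sima (0.25). By edgeR the adjusted p was 2.27e-05 for nmo, 0.000598 for CkIIbeta and 0.00151 for Atx2. For CkIalpha, ITP, hry, sima and wdb it was 0.0113, 0.0137, 0.0218, 0.0273 and 0.0492. None of these pathway calls was followed under the alternatives. There the BG3 calls over all genes were 115 with all 18 libraries fitted and 616 with replicate blocks.

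The spread between replicates differed among the clock genes. The coefficient of variation of per was 0.859% in pupal RNAi neurons, lower than in all but 0.528% of tested genes. It came from 329, 299 and 236 reads, for which counting error alone is larger, and is not read as a trait of per. In larval controls, where larval control replicate 1 was low, per varied by 21.9%. Clk varied by 54.4% in larval controls and 53.2% in pupal RNAi neurons, on 4 to 34 reads per library. Pdp1 varied by 19.9% in larval controls and 3.59% in GFP dsRNA BG3 cells. The median over all tested genes was 9.97% in larval controls, 12.6% in pupal RNAi neurons and 10.6% in GFP dsRNA BG3 cells.

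Across the 18 libraries, which share the large differences between stages and between neurons and the cell line, the genes most like each clock gene were found by Pearson's r of log2 CPM among 6806 to 6807 genes. For vri they were srl, Idh and pav (r = 0.995 to 0.996) and for Pdp1 Men-b, CG2258 and REPTOR (0.996 to 0.997). For cwo they were CG30377, CG4829 and kay (0.993 to 0.996), for per dnc, nAChRalpha5 and bun (0.987 to 0.988) and for tim nvy, Sik2 and SoxN (0.986 to 0.991). cyc was most like CG9951, CG17361 and CG1896 (0.943 to 0.953), and Clk, the scarcest of those compared, most like CG4313, CG34232 and CG34382 (0.907 to 0.916). cry was not compared.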

How the data were processed

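The deposited table held raw whole-number counts per gene. Per the submitters' processing notes, these counts came from reads processed with cutadapt 1.10, HISAT2 2.0.4, featureCounts 1.5.0-p3 and genome dm6. The annotation release, strand setting and treatment of multi-mapping reads are not given in the sources used here. RNA was extracted with the RNeasy Plus Micro kit and libraries were made with the Ovation system, per the labels' protocols. Symbols and coordinates were taken from Ensembl release 115 for 17210 of 17402 genes. Of the table's genes 2102 had no count.

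Counts were analysed with edgeR 4.0.16 in R 4.3.3 (filterByExpr with a minimum count of 10, TMM, robust quasi-likelihood fits, Benjamini-Hochberg adjustment, 2-sided). The 12 neuron libraries were fitted together, the 6 BG3 libraries alone, and all 18 for BG3 cells against neurons. Steps were tested on simulated data. Alternatives used DESeq2 1.42.0 (without the filter), limma-voom (limma 3.58.1), RLE size factors, other filters, a stricter threshold, removal of the gene length trend (lowess, span 0.3), replicate blocks, other sets of libraries and leaving out each library. Figures were made in Python 3.11.15 (matplotlib 3.10.9, pandas 2.3.3).

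The 8 genes and all lists were chosen with earlier results of these data known. Named genes were the 8, shep, the 3 of each pathway list with the smallest p per comparison, the 3 most correlated genes among those with at least 5 CPM, overlapping genes and cell type markers. Further called genes of the pathway lists were named where few passed. Of 159 list entries, 154 matched by symbol, 4 by synonym and 1 (cv-c) matched none.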

Additional observations from a re-analysis of the deposited data

How the results depend on the processing

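Of 990 values of the 47 clock gene results under alternatives, 947 kept their direction and side of the threshold, 20 lost the call and 1 gained it. These were tim and Clk by stage, and per in BG3 cells against neurons. The other 22 reversed, all in knockdown comparisons, where none was called (largest absolute log2 0.13, smallest adjusted p 0.648), and the cause was not tested. With the length trend removed these were cwo in pupae (-0.039) and, in BG3 cells, Pdp1 (-0.032) and cyc (0.031), and with no filter cwo in pupae (-0.013). Leaving out a library in turn gave ranges that crossed 0 in pupae for cwo (-0.13 to 0.10), tim (-0.17 to 0.078) and Clk (-0.095 to 0.71), in larvae for per (-0.22 to 0.049), cwo (-0.16 to 0.051) and cyc (-0.040 to 0.048), in BG3 cells for cyc (-0.11 to 0.069), and in the pupal minus larval difference for Clk (-0.80 to 0.11), Pdp1 (-0.071 to 0.23) and cwo (-0.069 to 0.19). With only the compared groups fitted, Clk gave no value in BG3 cells against neurons, where 6 clock genes were called. Counts of clock genes called were 5 to 6 (stage, controls) and 6 to 7 (stage, RNAi) without a library, and 0 for knockdown throughout.

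Counts of all genes called on knockdown were 672 (pupal), 32 (larval), 32 (difference) and 369 (BG3). They were 269, 15, 5 and 118 at an adjusted p under 0.01. With DESeq2 the difference gave 116, and with no filter the larval and difference counts were 76 and 102. With all 18 libraries fitted BG3 cells gave 115. Without a library the counts were 319 to 895 (pupal), 10 to 52 (larval), 13 to 89 (difference) and 133 to 466 (BG3). With the replicate number as a block BG3 cells gave 616, and no clock gene call on knockdown was changed. In neurons r between deviations was -0.11 to 0.16 for same-numbered libraries and -0.155 to 0.0905 for different numbers. In BG3 cells it was 0.02 to 0.04 for same numbers, above the -0.037 to 0.0067 for different ones. These values do not settle whether the numbers pair libraries, and the main fits used no pairing. A fit to the compared groups alone was not run for the difference, which uses all 12 neuron libraries. Depth limits Clk and cry in neurons and tim, Clk and cry in BG3 cells.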
